A study of Homo sapiens with 60 samples.

Results

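A set of 9 genes of epithelial junctions and of the alveolar epithelium was followed in A549, a cell line from a human lung carcinoma (non-small cell), at 24 h of exposure to herbal extracts or to vehicle. They were OCLN, CLDN1, CLDN2, F11R and TJP1 of the tight junction, CDH1 of the adherens junction, the epithelial adhesion molecule EPCAM, and ABCA3 and LPCAT1 of alveolar surfactant metabolism. These 9 genes were chosen by name, with earlier results of these data known, out of 60675 Ensembl gene IDs in the deposited table. All 9 were measurable: each passed the low-count filter in every fit, and none was too low to test. EPCAM was the lowest, with 85 to 180 counts per library.

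The 60 libraries comprised 8 extracts, each at 3 doses, and 3 vehicle libraries. The water extracts were the formulas Sayeok-tang (3 libraries per dose) and Bojungikgi-tang (2 libraries per dose), and the others were made with 70% ethanol. These were dried ginger (Zingiberis Rhizoma), fresh ginger (Zingiberis Rhizoma Recens), Pinelliae Tuber and Scutellariae Radix, each with 3 libraries per dose, and Zizyphi Fructus and Coptidis Rhizoma, each with a single library per dose. Doses were 500, 100 and 20 µg/mL, except that Scutellariae was used at 190, 38 and 7.6 µg/mL and Coptidis at 110, 22 and 4.4 µg/mL. Vehicle was DMSO, at 0.1% per the sample labels and 2% per the series text; the solvent of the extract wells is not given in the sources used here. Per the series text, extracts whose IC20 (the concentration that inhibits by 20%) lay under 500 µg/mL were given at that concentration and at dilutions of it. Changes are log2 changes ± SE and levels are CPM ± SD (counts relative to the TMM-scaled library total). Adjusted p-values are Benjamini-Hochberg values from edgeR's quasi-likelihood test over all genes tested. Below an adjusted p of 0.05 a change counts as called. Where libraries are said not to overlap, or to lie above or below vehicle, the share of all genes that did so was not computed.

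Tight junctions close the space between epithelial cells. Occludin (OCLN), the claudins and junctional adhesion molecule A (F11R) span the membrane and meet their partners on the next cell, and the scaffold ZO-1 (TJP1) ties them to actin. CLDN1 is a sealing claudin, and CLDN2 forms pores for cations and water. E-cadherin (CDH1) holds neighbouring cells together at the adherens junction below, and EPCAM binds between epithelial cells and associates with CLDN7. In alveolar type II cells ABCA3 loads phospholipid into lamellar bodies, and LPCAT1 makes the dipalmitoyl phosphatidylcholine of surfactant. A549 is widely used as a model of type II cells.

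Library totals ran from 17.51 to 38.54 M counts, with 22421 to 24450 genes detected. KRT8 and KRT18, keratins of simple epithelia, averaged 3581 ± 74.8 and 2761 ± 184 CPM in vehicle (n = 3). The other epithelial markers were lower there, with CDH1 at 29.9, KRT19 at 22.6 and EPCAM at 4.55 CPM. Of 8 epithelial state regulators 4 were under 0.1 CPM, while ELF3 had 157.1 CPM. Of the mesenchymal genes VIM had 992.3 and CDH2 97.4 CPM, while TWIST1 had 0.797 and SNAI2 0.684 CPM. Markers of both states were thus present. The surfactant markers were near 0. SFTPC had 0.0617 ± 0.0601 CPM and SFTPB 0.128 ± 0.069 CPM in vehicle, and 7 of 13 type II markers, NKX2-1 among them, were under 0.1 CPM there. The type II identity of these cells is therefore not visible in their defining markers, although ABCA3 and LPCAT1 were well measured. Of 22 markers of other cell types, 12 were under 0.1 CPM in vehicle, including PTPRC, PECAM1 and COL1A2. The highest others in vehicle were CAV1 with 469.3 CPM, COL1A1 with 31.6 CPM, MUC5B with 25.1 CPM, TP63 with 8.3 CPM and ACTA2 with 7.33 CPM. Separate cultures are not stated for the replicates, so the p-values reflect only the scatter of these libraries, which may be technical. All comparisons with vehicle share the same 3 vehicle libraries, whose labels carry another set number than those of the extracts, so handling and treatment cannot be told apart there. Comparisons between doses or between extracts do not use the vehicle levels.

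Per exon length, CLDN1 and TJP1 were the most abundant of the 9 genes and EPCAM the least. In vehicle, CLDN1 had 97.7 ± 4.97 TPM (a level per exon length and library, n = 3) and TJP1 81.6 ± 8.38 TPM, a gap of under 2 SD of TJP1. LPCAT1 followed with 37.4 ± 0.771 TPM, then F11R with 25.8 ± 0.965, CLDN2 with 22.6 ± 0.858 and CDH1 with 15.1 ± 0.638 TPM. OCLN with 9.41 ± 0.43 TPM and ABCA3 with 8.5 ± 0.657 TPM overlapped in their SD, and EPCAM had 5.62 ± 0.558 TPM. OCLN had the widest range over the 25 groups, 1.44 on the log2 scale of mean CPM, followed by CLDN2 with 1.34. TJP1 had the narrowest, 0.27. The top of the OCLN range and the bottom of the CLDN2 range were 1 Coptidis library (53.9 and 11.7 CPM). In the replicated groups and vehicle, mean CPM ran from 19.5 to 35.5 for OCLN and 19.5 to 30.5 for CLDN2. It ran from 108.8 to 190.7 for CLDN1 and 19.6 to 34.7 for ABCA3, both wider than CLDN2 in log2 terms.

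**Figure D1:**
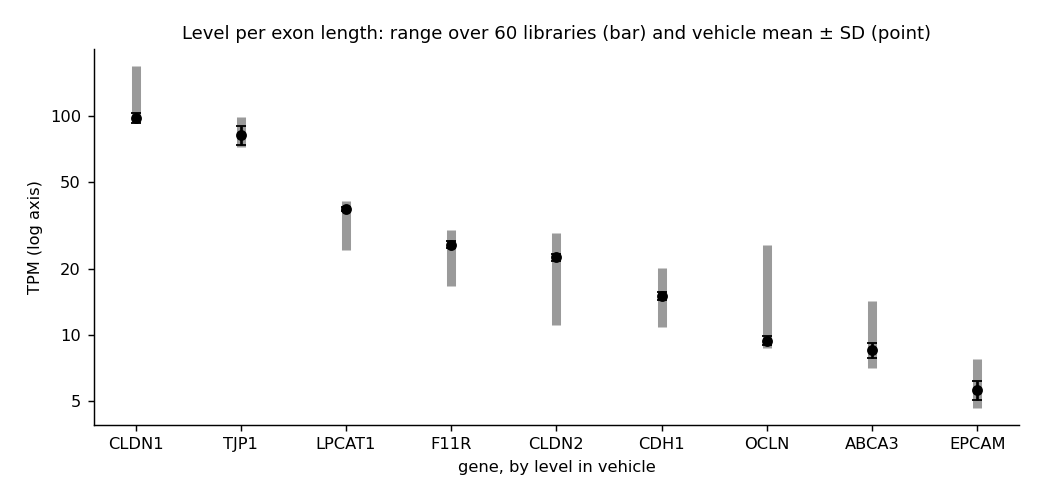
Level of each of the 9 genes per exon length, in TPM on a log axis, ordered by its level in vehicle. Bars span the lowest to the highest of 60 libraries and points give the vehicle mean ± SD (n = 3); CLDN1 stands highest with 97.7 TPM in vehicle and EPCAM lowest with 5.62 TPM.

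On GRCh38 with GENCODE 29, OCLN (ENSG00000197822) lies on chromosome 5, 69492292 to 69558104, plus strand. CLDN1 (ENSG00000163347) lies on chromosome 3, 190305701 to 190322475, minus strand. CLDN2 (ENSG00000165376) lies on chromosome X, 106900164 to 106930861, plus strand, and ABCA3 (ENSG00000167972) on chromosome 16, 2275881 to 2340746, minus strand. TJP1 (ENSG00000104067) spans 29699367 to 29968865 on the minus strand of chromosome 15, and F11R (ENSG00000158769) 160995211 to 161021348 on the minus strand of chromosome 1. CDH1 (ENSG00000039068) spans 68737225 to 68835548 on the plus strand of chromosome 16, EPCAM (ENSG00000119888) 47345158 to 47387601 on the plus strand of chromosome 2, and LPCAT1 (ENSG00000153395) 1456480 to 1523977 on the minus strand of chromosome 5. CLDN2 is crossed on the other strand by MORC4, a gene with a median of 2577 counts, but the annotation gives them 0 shared exon bases. F11R shares 36.6% of its exon bases with ENSG00000270149 on the same strand (median 126 counts), so reads there may have been split between both. OCLNP1, a pseudogene copy of OCLN, had a median of 0 counts.

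The start regions of CLDN1 and ABCA3, which rose together, and of CLDN2, which fell in part of the same libraries, were read as the 250 bases before the RefSeq start (GRCh38.p14), 5′ to 3′ on the gene's strand. Capitals mark matches on either strand to CAGGTG, the E-box bound by SNAI1 and ZEB1, or to GCGTG, the core bound by the aryl hydrocarbon receptor (AHR) with ARNT.
CLDN1, chr3:190322447-190322696, minus strand: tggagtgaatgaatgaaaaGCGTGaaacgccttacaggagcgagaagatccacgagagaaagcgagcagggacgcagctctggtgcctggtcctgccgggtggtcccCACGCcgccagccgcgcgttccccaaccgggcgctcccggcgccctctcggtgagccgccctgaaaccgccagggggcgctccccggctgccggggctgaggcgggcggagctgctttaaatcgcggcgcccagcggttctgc
ABCA3, chr16:2340729-2340978, minus strand: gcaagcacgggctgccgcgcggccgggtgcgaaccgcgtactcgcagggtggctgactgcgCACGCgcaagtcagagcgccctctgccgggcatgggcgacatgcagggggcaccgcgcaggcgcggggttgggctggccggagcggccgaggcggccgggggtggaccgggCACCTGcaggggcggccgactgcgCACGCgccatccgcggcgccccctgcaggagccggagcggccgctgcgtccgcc
CLDN2, first RefSeq start, chrX:106899914-106900163, plus strand: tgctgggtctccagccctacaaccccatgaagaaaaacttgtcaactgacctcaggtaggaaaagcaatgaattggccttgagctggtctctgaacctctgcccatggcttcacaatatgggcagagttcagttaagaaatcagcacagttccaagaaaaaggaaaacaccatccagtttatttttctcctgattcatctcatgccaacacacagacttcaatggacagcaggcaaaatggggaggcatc
The CLDN1 window holds 2 AHR core matches and no E-box match. The ABCA3 window holds 2 AHR core matches and 1 E-box match. The CLDN2 window shown holds neither, nor does that of the other RefSeq start of CLDN2. RefSeq lists 2 starts for OCLN, and their windows are not shown. Each of these 2 windows has 1 E-box match and no AHR core match. GENCODE begins OCLN, CLDN1 and ABCA3 upstream of these RefSeq starts. CDH1, EPCAM and F11R had no start region in the reference used and were not searched. The 4 TJP1 windows together hold 3 AHR core matches and 1 E-box match, and the LPCAT1 window holds neither. Over all 35116 promoters of the same length, 17.49% hold the E-box letters and 32.2% the AHR core, and a match of letters is no measure of binding. These shares are not matched for GC content, which differed between the windows. It was 68.8% for CLDN1 and 79.2% for ABCA3, but 46.0% and 48.8% for CLDN2. The OCLN windows (68.8% and 70.8%) and the LPCAT1 window (78.8%) were GC-rich without an AHR core match.

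Over the 18 comparisons of an extract and dose with vehicle, 37 of 162 tests of the 9 genes were called, or 22.8%, beside 11.1% of all tests over all genes (0.77% to 40.3% in single comparisons). The 9 genes were chosen with earlier results of these data known, and the 18 comparisons share the same vehicle libraries. The higher share is therefore no test of the set. OCLN, CLDN1 and ABCA3 were called higher in 5, 6 and 3 of the 18 comparisons and never lower, and LPCAT1 was called lower in 5 and never higher. CDH1 and TJP1 were each called higher in 6 comparisons, while CLDN2 was called higher in 4 and lower in 2. F11R and EPCAM had 0 calls in any of the 32 comparisons with edgeR and 0 with DESeq2; F11R reached an unadjusted p under 0.05 in 4 of them and EPCAM in 1.

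**Figure D2:**
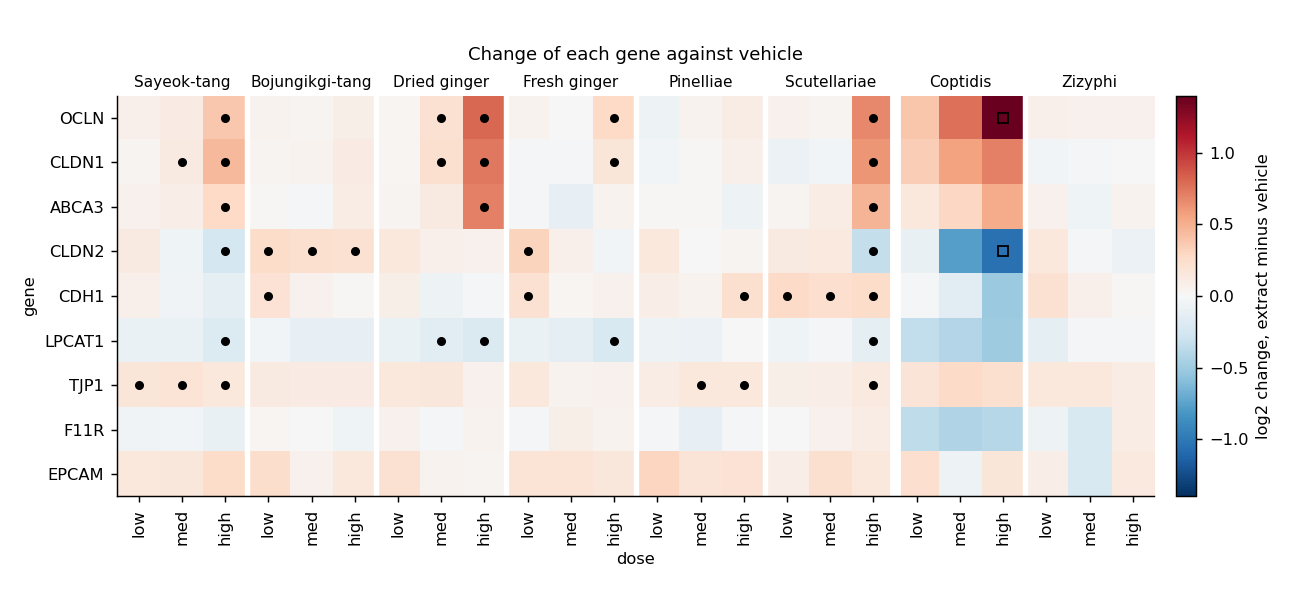
Log2 change of each gene (rows) against vehicle for each extract and dose (columns, low to high within an extract). Dots mark calls at an adjusted p under 0.05; squares, for Coptidis and Zizyphi with 1 library per dose, mark log2 ratios of at least 1 in size outside the vehicle range. OCLN, CLDN1 and ABCA3 are higher at the high dose of dried ginger, Scutellariae and Sayeok-tang.

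The members called must be read against how many genes moved in all. Dried ginger at 500 µg/mL had 4 of the 9 genes called against vehicle, where 39.2% of all genes were called, and Scutellariae at 190 µg/mL had 7 of 9, where 40.3% were called. Sayeok-tang at 500 µg/mL had 6 of 9 called beside 18.9% of all genes, and fresh ginger at 500 µg/mL 3 of 9 beside 13.4%. For dried ginger the share of the 9 genes was near that of all genes.

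OCLN rose the most of the 9 genes with dried ginger at 500 µg/mL. It had 36.7, 33.8 and 36.1 CPM in the treated libraries, against 21.2, 19.9 and 20.1 CPM in the vehicle libraries. The groups did not overlap, and the log2 change was 0.80 ± 0.06 (adjusted p = 2.93e-12). At 100 µg/mL dried ginger gave 23.0, 23.4 and 24.9 CPM of OCLN (log2 change 0.22 ± 0.06, adjusted p = 0.0273), next to 6.15% of all genes and 3 of the 9 called. That smaller call ended when dried ginger replicate 2 or 3 or vehicle replicate 2 or 3 was left out, with log2 changes of 0.23, 0.18, 0.20 and 0.21 (adjusted p 0.0714 to 0.126). At 20 µg/mL edgeR called 0 of the 9 genes, beside 3.6% of all genes; 3 had an unadjusted p under 0.05 and DESeq2 called 1. Between 500 and 20 µg/mL of dried ginger OCLN differed by 0.77 ± 0.06 (adjusted p = 9.69e-12), beside 4 of 9 genes and 32.8% of all genes called.

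OCLN also rose with Scutellariae at 190 µg/mL, to 31.4, 34.9 and 31.2 CPM (log2 change 0.67 ± 0.06, adjusted p = 2.17e-12), all above the vehicle libraries. At 7.6 and 38 µg/mL its libraries (20.4 to 22.6 CPM and 19.9 to 22.5 CPM) overlapped vehicle; 1 of 9 genes, CDH1, was called at each of these doses, beside 8.89% and 8.9% of all genes. Between 190 and 7.6 µg/mL the log2 difference was 0.61 ± 0.06 (adjusted p = 6.25e-11), with 4 of the 9 and 31% of all genes called. Sayeok-tang at 500 µg/mL gave 26.4, 26.7 and 26.4 CPM of OCLN (log2 change 0.37 ± 0.05, adjusted p = 2.64e-06), and fresh ginger at 500 µg/mL gave 24.7, 23.9 and 25.7 CPM (0.28 ± 0.06, adjusted p = 0.00196). Both sets of libraries lay above all vehicle libraries and below all libraries of dried ginger at that dose. Bojungikgi-tang at 500 µg/mL, by contrast, had 21.9 and 21.2 CPM, close to vehicle, and OCLN was not called.

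**Figure D3:**
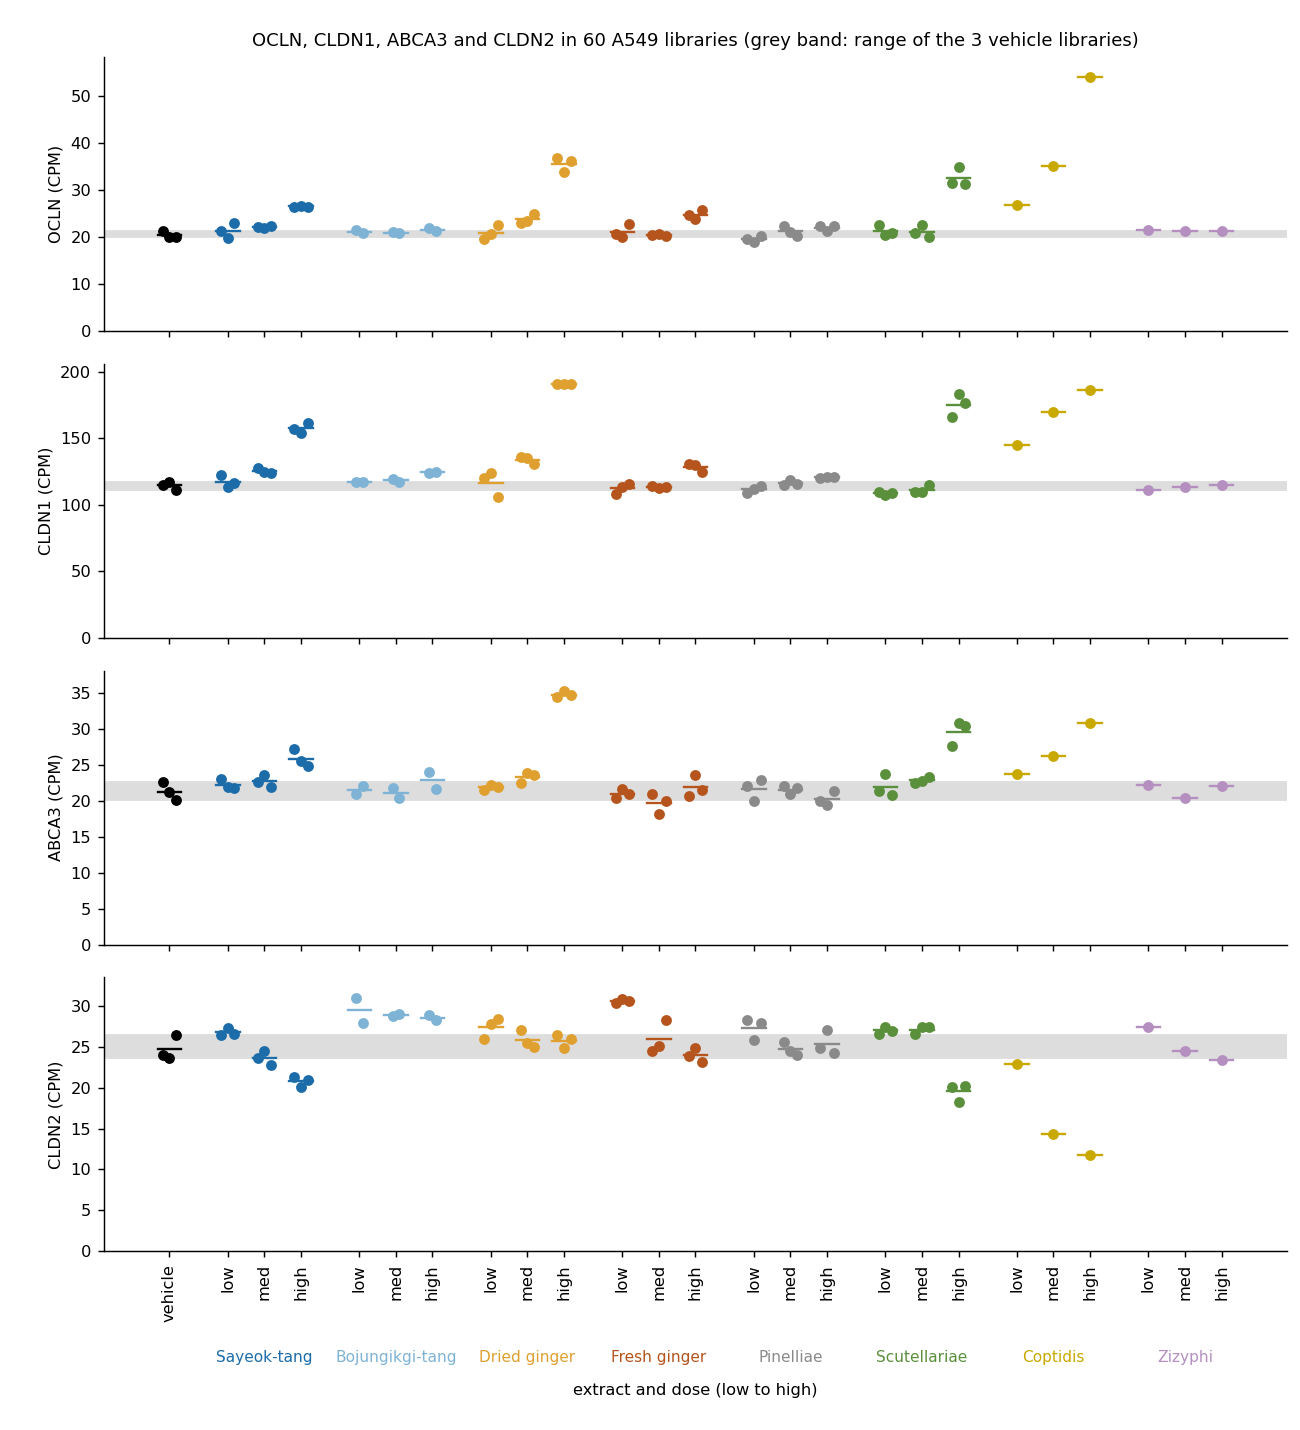
CPM of OCLN, CLDN1, ABCA3 and CLDN2 in each of 60 libraries, by extract and dose from low to high, with vehicle at the left; points are libraries, lines are group means and the grey band is the range of the 3 vehicle libraries. OCLN stands at 53.9 CPM in the high-dose Coptidis library and CLDN2 at 11.7 CPM there.

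CLDN1, like OCLN, was highest with dried ginger among the replicated high doses, followed by Scutellariae, Sayeok-tang and fresh ginger. Dried ginger at 500 µg/mL gave 190.8, 190.6 and 190.8 CPM, against 115.1, 117.5 and 111.4 CPM in vehicle (log2 change 0.73 ± 0.04, adjusted p = 9.6e-14). Scutellariae at 190 µg/mL gave 166, 184 and 177 CPM (0.61 ± 0.03, adjusted p = 7.44e-18), and Sayeok-tang at 500 µg/mL gave 157, 154 and 162 CPM (0.46 ± 0.03, adjusted p = 1.33e-13). Every one of these 9 libraries lay above the highest vehicle library. With dried ginger at 100 µg/mL CLDN1 rose to 134 ± 2.77 CPM (log2 change 0.22 ± 0.04, adjusted p = 0.0026).

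Smaller changes of CLDN1 were less firm. Fresh ginger at 500 µg/mL gave 128.5 ± 3.24 CPM against 114.7 ± 3.08 CPM in vehicle (0.17 ± 0.04, adjusted p = 0.0136), a call that ended without fresh ginger replicate 1 or 2 or without vehicle replicate 3 (log2 changes 0.15, 0.15 and 0.15, adjusted p 0.0632 to 0.0677). Sayeok-tang at 100 µg/mL gave 126 ± 1.91 CPM (0.13 ± 0.03, adjusted p = 0.00656), beside 2 of 9 genes and 10.8% of all genes called; without its replicate 1 the log2 change was 0.12 with adjusted p = 0.0511. CLDN1 was not called at the low dose of any of the 6 replicated extracts. Its libraries at 7.6 µg/mL of Scutellariae, with 109.7, 107.4 and 109.2 CPM, lay below all vehicle libraries (adjusted p = 0.161). Within extracts, the difference between the high and low dose was 0.71 ± 0.04 for dried ginger (adjusted p = 2.63e-13), 0.69 ± 0.03 for Scutellariae (adjusted p = 4.07e-19) and 0.42 ± 0.03 for Sayeok-tang (adjusted p = 2.65e-12).

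ABCA3 was called in the same 3 groups and in no other comparison of a replicated group with vehicle. With dried ginger at 500 µg/mL it had 34.4, 35.2 and 34.6 CPM, against 22.6, 21.1 and 20.1 CPM in vehicle (log2 change 0.71 ± 0.06, adjusted p = 4.53e-11). Scutellariae at 190 µg/mL gave 27.5, 30.8 and 30.4 CPM (0.47 ± 0.06, adjusted p = 2.23e-08), and Sayeok-tang at 500 µg/mL gave 27.2, 25.5 and 24.8 CPM (0.28 ± 0.06, adjusted p = 0.000538). All 9 treated libraries lay above the highest vehicle library. Fresh ginger at 500 µg/mL had 20.7, 23.5 and 21.5 CPM, which overlapped vehicle, and ABCA3 was not called there. The dose difference was 0.67 ± 0.06 for dried ginger (adjusted p = 1.94e-10) and 0.43 ± 0.06 for Scutellariae (adjusted p = 3.96e-07). For Sayeok-tang it was 0.21 ± 0.06 (adjusted p = 0.0174), and this call ended without replicate 1 of the high dose or replicate 2 or 3 of the low dose (log2 0.17, 0.20 and 0.20, adjusted p = 0.129, 0.0631 and 0.0815), and with DESeq2 (0.21, adjusted p = 0.0994).

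CLDN2 moved in the opposite direction to OCLN with Sayeok-tang and Scutellariae, but not with dried ginger. Scutellariae at 190 µg/mL gave 20.1, 18.3 and 20.2 CPM, against 24.0, 23.6 and 26.5 CPM in vehicle (log2 change -0.33 ± 0.06, adjusted p = 1.08e-05). Sayeok-tang at 500 µg/mL gave 21.2, 20.1 and 20.9 CPM (-0.25 ± 0.06, adjusted p = 0.0012). The treated libraries lay below every vehicle library in both cases. Dried ginger at 500 µg/mL had 26.4, 24.8 and 25.9 CPM, a log2 change of 0.06 that was not called. MORC4, which crosses CLDN2 on the other strand, rose by 0.35 ± 0.04 with Scutellariae at 190 µg/mL, by 0.14 ± 0.04 with Sayeok-tang and by 0.35 ± 0.04 with dried ginger at 500 µg/mL; the library kit is named as directional, but the strand setting of the counting is not given in the sources used here.

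Between high and low dose CLDN2 fell with 3 extracts. The log2 difference was -0.46 ± 0.06 for Scutellariae (adjusted p = 4.98e-08), -0.37 ± 0.06 for Sayeok-tang (adjusted p = 1.09e-05) and -0.35 ± 0.06 for fresh ginger (adjusted p = 0.000264). For Sayeok-tang 5 of the 9 genes were called between these doses, beside 7.58% of all genes, and for fresh ginger 3 of 9 beside 3.67%. For fresh ginger the low dose stood above vehicle: it had 30.3, 30.8 and 30.6 CPM at 20 µg/mL (log2 change 0.31 ± 0.06, adjusted p = 0.00196), where 2 of 9 and 6.48% of all genes were called, and 23.8, 24.9 and 23.1 CPM at 500 µg/mL. The low-dose libraries of Sayeok-tang (26.48 to 27.34 CPM) and Scutellariae (26.57 to 27.44 CPM) also lay above the highest vehicle library (26.45 CPM). CLDN2 was not called against vehicle there. Part of the fall between doses thus lay above the vehicle level with all 3 extracts. At 100 µg/mL of fresh ginger edgeR called 0 of the 9 genes and 0.77% of all genes; 1 had an unadjusted p under 0.05 and DESeq2 called 1. OCLN and CLDN1 rose between the low and high dose of fresh ginger by 0.22 ± 0.06 (adjusted p = 0.0278) and 0.19 ± 0.05 (adjusted p = 0.00969). The OCLN call ended in 4 of 6 leave-outs: without replicate 1 or 3 of the high dose or 1 or 2 of the low dose the log2 difference was 0.23, 0.20, 0.20 and 0.19 (adjusted p 0.0873 to 0.146). The CLDN1 call ended without replicate 1 or 2 of the high dose or 1 of the low dose (0.18, 0.18 and 0.16, adjusted p 0.0509 to 0.0868).

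Bojungikgi-tang gave the other pattern, with CLDN2 called higher at each dose. CLDN2 had 31.0 and 28.0 CPM at 20 µg/mL, 28.78 and 29.01 CPM at 100 µg/mL and 28.9 and 28.2 CPM at 500 µg/mL, all above the highest vehicle library (26.5 CPM). The log2 changes were 0.26 ± 0.06, 0.23 ± 0.06 and 0.21 ± 0.06 (adjusted p = 0.00477, 0.0302 and 0.03). The members called were 2, 1 and 1 of 9 at these doses, and of all genes 6.94%, 1.94% and 3.73%. With n = 2 these calls were fragile: that at 500 µg/mL ended without vehicle replicate 1 or 2 or without either of its own libraries (log2 0.20, 0.18, 0.20 and 0.23, adjusted p 0.0726 to 0.245), that at 100 µg/mL likewise (0.21, 0.20, 0.24 and 0.23, adjusted p 0.0584 to 0.26), and that at 20 µg/mL without its replicate 2 (0.18, adjusted p = 0.205). DESeq2 gave 0.21 with adjusted p = 0.11 at 500 µg/mL. Between 500 and 20 µg/mL of Bojungikgi-tang edgeR called 0 of the 9 genes and 0.712% of all genes; 2 had an unadjusted p under 0.05 and DESeq2 called 0.

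Both gingers were given at the same doses, so the dried and the fresh rhizome can be compared directly. At 500 µg/mL dried ginger had more OCLN (35.5 ± 1.53 CPM, against 24.8 ± 0.909 CPM with fresh ginger), CLDN1 (190.7 ± 0.118 CPM, against 128.5 ± 3.24 CPM) and ABCA3 (34.7 ± 0.452 CPM, against 21.9 ± 1.47 CPM). The log2 differences, dried minus fresh, were 0.52 ± 0.06, 0.57 ± 0.04 and 0.66 ± 0.06 (adjusted p = 3.82e-08, 7.61e-11 and 6.94e-10), and the libraries did not overlap. These 3 of 9 genes were called beside 22.5% of all genes. The remaining 6 genes differed by -0.12 to 0.10 on the log2 scale and were not called. At 100 µg/mL CLDN1 alone of the 9 was called, beside 0.481% of all genes, with 134 ± 2.77 CPM in dried against 113.5 ± 0.953 CPM in fresh ginger (0.24 ± 0.05, adjusted p = 0.00857); without dried ginger replicate 2 the adjusted p was 0.0557 with a log2 difference of 0.23. At 20 µg/mL edgeR called 0 of the 9 and 0% of all genes; 2 of the 9 and 469 of all genes had an unadjusted p under 0.05, and DESeq2 called 0 of the 9 and 1 gene in all.

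The change between 500 and 20 µg/mL was also larger with dried than with fresh ginger. The difference of these dose changes was 0.54 ± 0.08 for OCLN, 0.51 ± 0.06 for CLDN1 and 0.60 ± 0.08 for ABCA3 (adjusted p = 2.79e-05, 1.27e-06 and 8.09e-06), with 4 of the 9 and 11.2% of all genes called. For CLDN2, the other called gene, it was 0.26 ± 0.08 (adjusted p = 0.0381), beside a dose change of -0.35 with fresh ginger; this call ended in 9 of 12 leave-outs, with log2 differences from 0.22 to 0.29 over all 12 and an adjusted p of up to 0.114, and with DESeq2 (0.26, adjusted p = 0.0605). Among the leave-outs it held only without replicate 2 of dried ginger at 500 µg/mL, 2 of fresh ginger at 500 µg/mL or 3 of dried ginger at 20 µg/mL.

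**Figure D4:**
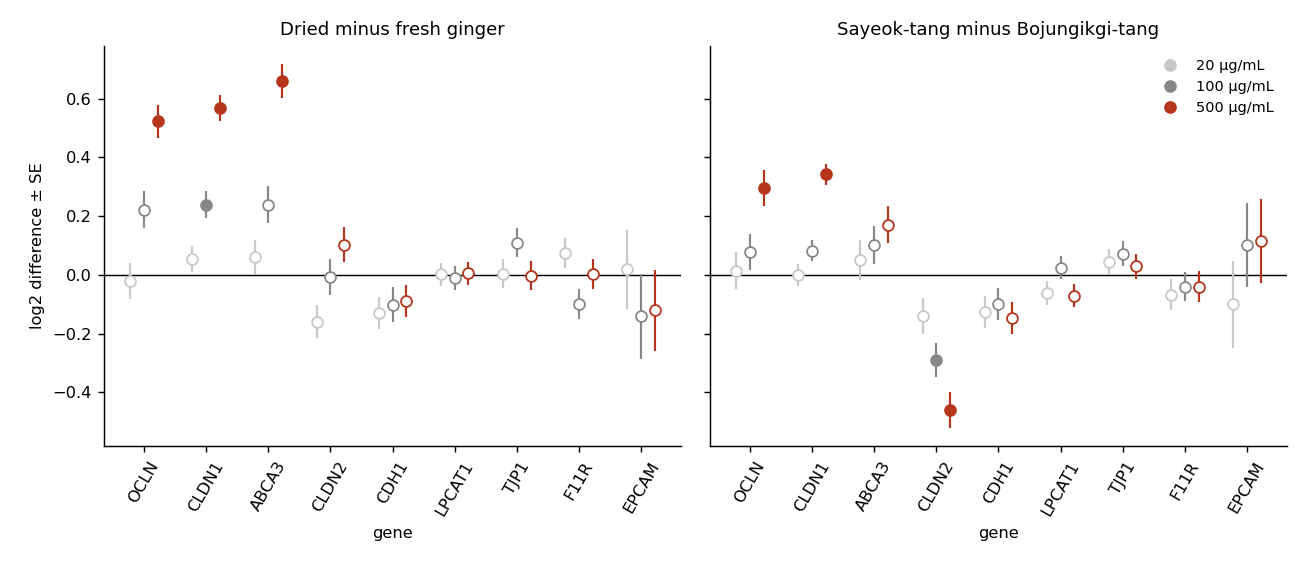
Log2 difference ± SE between related extracts at equal doses, for the 9 genes; filled points were called at an adjusted p under 0.05. OCLN, CLDN1 and ABCA3 lie between 0.52 and 0.66 above 0 for dried minus fresh ginger at 500 µg/mL, and CLDN2 lies at -0.46 for Sayeok-tang minus Bojungikgi-tang.

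The 2 formulas also differed at 500 µg/mL. Sayeok-tang had 26.5 ± 0.156 CPM of OCLN, against 21.5 ± 0.49 CPM with Bojungikgi-tang (log2 difference 0.30 ± 0.06, adjusted p = 0.00269), and 157.8 ± 3.66 CPM of CLDN1, against 124.4 ± 0.307 CPM (0.34 ± 0.04, adjusted p = 2.83e-08). CLDN2 had 20.8 ± 0.573 CPM with Sayeok-tang, against 28.5 ± 0.428 CPM with Bojungikgi-tang (-0.46 ± 0.06, adjusted p = 3.42e-06). These 3 of 9 genes were called where 2.05% of all genes were. The OCLN call ended without Bojungikgi-tang replicate 3 (0.28, adjusted p = 0.06). At 100 µg/mL CLDN2 alone of the 9 was called, beside 0.185% of all genes, at -0.29 ± 0.06 (adjusted p = 0.0151). That call ended without replicate 1 or 3 of Sayeok-tang or either library of Bojungikgi-tang (-0.29, -0.27, -0.30 and -0.29, adjusted p 0.0735 to 0.216), and with DESeq2 (-0.29, adjusted p = 0.159). At 20 µg/mL edgeR called 0 of the 9 and 0.0179% of all genes; 2 had an unadjusted p under 0.05 and DESeq2 called 0. The dose change of CLDN1 was larger with Sayeok-tang than with Bojungikgi-tang by 0.34 ± 0.05 (adjusted p = 0.000156), the 1 called among the 9, beside 0.275% of all genes.

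With 1 library per dose, Coptidis has no spread of its own, and its values are given with 95% exact Poisson intervals that cover counting error only. OCLN had 26.8 CPM (24.6 to 29.1) at 4.4 µg/mL, 35.2 CPM (32.6 to 37.9) at 22 µg/mL and 53.9 CPM (50.9 to 57.0) at 110 µg/mL, against 19.9 to 21.2 CPM in the vehicle libraries. CLDN2 had 22.9 CPM (20.8 to 25.0), 14.3 CPM (12.7 to 16.1) and 11.7 CPM (10.3 to 13.2) at the same doses, against 23.6 to 26.5 CPM in vehicle. OCLN stood higher and CLDN2 lower at each higher dose. The log2 ratios to the vehicle mean at 110 µg/mL were 1.38 for OCLN and -1.04 for CLDN2, and these 2 of 8 genes that averaged 5 CPM or more were past 2-fold, a rule that 1.6% of all genes met. At 22 and 4.4 µg/mL none of the 8 met it, beside 0.603% and 0.238% of all genes. In 1 edgeR fit of all 60 libraries, which assumes that the lone library varies like the replicated groups, 5, 7 and 8 of the 9 genes were called at 4.4, 22 and 110 µg/mL, beside 7.38%, 17.3% and 32.4% of all genes.

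The lowest of all 60 libraries was a Coptidis library for CLDN2, CDH1, F11R and LPCAT1. How many of all genes had their lowest library there, or lay outside the vehicle range, was not computed. These positions are therefore descriptions and no result about the 9 genes. At 110 µg/mL CDH1 had 20.7 CPM (18.9 to 22.7), against 29.3 to 30.8 CPM in vehicle. F11R had 32.7, 31.2 and 31.7 CPM from the low to the high dose, against 41.2 to 42.2 CPM in vehicle, and LPCAT1 had 61.0, 58.6 and 55.1 CPM, against 77.2 to 78.4 CPM. F11R was below the vehicle range in all 3 Coptidis libraries, and also in the Zizyphi libraries at 20 and 100 µg/mL (39.7 and 36.1 CPM), while that at 500 µg/mL had 45.1 CPM. CLDN1 had 145.3, 169.8 and 186.8 CPM and ABCA3 23.6, 26.2 and 30.7 CPM from low to high dose, all above vehicle. With Zizyphi none of the 8 genes was past 2-fold at 20, 100 or 500 µg/mL, beside 0.101%, 0.101% and 0.0916% of all genes, and OCLN had 21.4, 21.4 and 21.3 CPM. The fit of all 60 libraries called 0 of the 9 genes at these doses, beside 0.767%, 0.0504% and 0.0392% of all genes.

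LPCAT1 was called lower in the replicated groups where OCLN was called higher, by less. Its mean also lay below vehicle (77.8 CPM) where OCLN was not called. It was 70.8 CPM with fresh ginger at 100 µg/mL, and 71.8 CPM with Bojungikgi-tang at 100 and at 500 µg/mL. Among all extracts and doses only Pinelliae at 500 µg/mL had a higher mean than vehicle, 78.4 CPM. Between doses LPCAT1 was called in 1 of 6 comparisons. LPCAT1 had 68.0, 69.1 and 68.6 CPM with Sayeok-tang at 500 µg/mL, against 77.2, 77.9 and 78.4 CPM in vehicle (log2 change -0.19 ± 0.04, adjusted p = 0.000172). Dried ginger at 500 µg/mL gave 67.5, 66.9 and 68.1 CPM (-0.21 ± 0.04, adjusted p = 8.5e-05) and fresh ginger 66.5, 65.5 and 69.8 CPM (-0.21 ± 0.04, adjusted p = 0.000451). The treated libraries were below every vehicle library, and both gingers gave about the same level. Scutellariae at 190 µg/mL gave 71.5 ± 1.77 CPM (-0.12 ± 0.04, adjusted p = 0.0127), a call that ended without its replicate 1 (-0.11, adjusted p = 0.0515). A further 2, smaller calls with dried ginger, at 100 µg/mL (-0.15 ± 0.04, adjusted p = 0.0197) and between 500 and 20 µg/mL (-0.11 ± 0.04, adjusted p = 0.0262), were less firm. The call at 100 µg/mL ended without its replicate 1 or 3 or vehicle replicate 2 or 3 (-0.14, -0.14, -0.15 and -0.14, adjusted p 0.0639 to 0.0843), and without the low-count filter (adjusted p = 0.0639). The call between doses ended without any one library but replicate 2 of the low dose (-0.10 to -0.11, adjusted p 0.0548 to 0.0993), and without the filter (adjusted p = 0.154). In bulk libraries such as these, fewer cells that express a gene and less RNA per cell cannot be told apart.

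CDH1 rose with Scutellariae at all 3 doses, without a trend over dose. It had 35.7, 35.6 and 36.9 CPM at 7.6 µg/mL, 33.2, 37.7 and 34.7 CPM at 38 µg/mL and 36.8, 35.4 and 35.3 CPM at 190 µg/mL, against 30.8, 29.6 and 29.3 CPM in vehicle. The log2 changes were 0.27 ± 0.05, 0.24 ± 0.05 and 0.26 ± 0.05 (adjusted p = 0.00102, 0.00315 and 9.58e-05). Between 190 and 7.6 µg/mL CDH1 differed by -0.01 (adjusted p = 0.92), so no dose difference was detected. Pinelliae at 500 µg/mL gave 37.5, 34.4 and 32.9 CPM (0.22 ± 0.05, adjusted p = 0.00514), with 2 of 9 and 8.93% of all genes called; without its replicate 1 the change was 0.17 with adjusted p = 0.0787. Fresh ginger at 20 µg/mL (0.22 ± 0.05, adjusted p = 0.0175) and Bojungikgi-tang at 20 µg/mL (0.20 ± 0.05, adjusted p = 0.0199) were called too. The fresh ginger call ended without its replicate 1 or 2 or vehicle replicate 2 or 3 (0.19, 0.20, 0.21 and 0.20, adjusted p 0.0615 to 0.0832), and the Bojungikgi-tang call without either of its libraries or vehicle replicate 2 or 3 (0.21, 0.18, 0.19 and 0.19, adjusted p 0.0593 to 0.21) or with DESeq2 (0.20, adjusted p = 0.0571). Within Sayeok-tang CDH1 fell to 27.5 ± 0.647 CPM at 500 µg/mL, against 31.5 ± 2.2 CPM at 20 µg/mL (-0.20 ± 0.05, adjusted p = 0.00944), and without replicate 2 of the low dose the difference was -0.14 with adjusted p = 0.124; DESeq2 gave -0.20 with adjusted p = 0.0601.

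TJP1 was called higher in 6 comparisons with vehicle, by 0.14 to 0.19 on the log2 scale, and in no comparison between doses or extracts. Its vehicle libraries had 312, 304 and 267 CPM, so vehicle replicate 3 stood below the others. Over the 18 comparisons the log2 change of TJP1 ran from 0.05 to 0.19, so every mean was above vehicle (294.5 ± 24.0 CPM). The lowest was 304.1 CPM with fresh ginger at 100 µg/mL. Some groups that edgeR did not call stood about as high as called ones. Dried and fresh ginger at 20 µg/mL had 327 ± 4.41 and 325.8 ± 10.2 CPM. Sayeok-tang gave 328, 326 and 340 CPM at 20 µg/mL, 342, 332 and 336 CPM at 100 µg/mL and 330, 324 and 328 CPM at 500 µg/mL, all above vehicle. Its log2 changes of 0.17, 0.19 and 0.15 became 0.10, 0.13 and 0.08 without vehicle replicate 3 (adjusted p = 0.0377, 0.00782 and 0.0639). At 20 µg/mL of Sayeok-tang TJP1 was the 1 of 9 called, beside 8.34% of all genes. The calls of Pinelliae at 500 and 100 µg/mL (0.15 each) and Scutellariae at 190 µg/mL (0.14) ended without that library, at 0.09, 0.08 and 0.08 (adjusted p = 0.128, 0.164 and 0.0607). The Pinelliae calls also ended without its own replicate 1 at 500 µg/mL (0.14, adjusted p = 0.0574) and replicate 2 at 100 µg/mL (0.13, adjusted p = 0.0931). Pinelliae at 100 µg/mL had 1 of 9 genes called beside 7.17% of all genes. At 20 µg/mL edgeR called 0 of the 9 genes beside 5.51% of all genes, with 3 at an unadjusted p under 0.05 and 0 by DESeq2. Between its high and low dose edgeR called 0 of the 9 and 0.0663% of all genes, with 4 at an unadjusted p under 0.05 and 0 by DESeq2.

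F11R and EPCAM were not called with any of the 6 replicated extracts. F11R changed by -0.11 to 0.10 on the log2 scale over the 18 comparisons with vehicle (lowest adjusted p 0.0655). EPCAM changed by 0.03 to 0.30, always above vehicle in the mean (lowest adjusted p 0.103), at 4.74, 3.94 and 4.96 CPM in the vehicle libraries. Its Pinelliae libraries at 20 µg/mL (5.34 to 5.80 CPM) and 500 µg/mL (5.03 to 5.51 CPM) lay above every vehicle library. So did those of Scutellariae at 38 µg/mL (4.98 to 5.73 CPM). Without the share of all genes that separated in this way, these positions do not show a rise of EPCAM. At its low counts the lack of a call does not show that EPCAM was unchanged.

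Other genes of the same structures did not all go with OCLN and CLDN1. Of 10 tested tight junction membrane proteins outside the 9, 3 rose and 2 fell with dried ginger at 500 µg/mL, beside 39.2% of all genes called (median log2 change 0.25, against 0.01 over all genes). Among them MARVELD2 (tricellulin, related to occludin) rose by 0.36, CLDN12 rose by 0.26 and CXADR, an adhesion receptor, fell by 0.40, all as log2 changes (adjusted p = 0.00181, 5.92e-05 and 5.15e-07). With Scutellariae at 190 µg/mL 2 of 11 rose, beside 40.3% of all genes called: MARVELD2 by 0.40 and CLDN12 by 0.19 (adjusted p = 0.00086 and 0.00151). Of 16 tested plaque and polarity genes, 1 rose and 5 fell with dried ginger and 3 rose and 3 fell with Scutellariae (median log2 change -0.09 with dried ginger). Both shares were near the 39.2% and 40.3% called over all genes. CRB3, a polarity protein, fell by 0.61 with dried ginger and by 0.65 with Scutellariae in log2 units (adjusted p = 0.00237 and 0.00345), PALS1, its partner, fell by 0.19 and by 0.16 (adjusted p = 0.00277 and 0.00129), PARD3 fell by 0.16 with dried ginger (adjusted p = 0.00319) and PARD6B fell by 0.24 with Scutellariae (adjusted p = 0.00613).

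Of 10 tested adherens junction genes other than CDH1, which include catenins and nectins, 2 rose and 6 fell with dried ginger at 500 µg/mL, where 39.2% of all genes were called. With Scutellariae at 190 µg/mL 1 rose and 6 fell, beside 40.3% of all genes (medians -0.19 and -0.17). In the other groups where OCLN was called higher fewer of these genes moved: 1 rose and 2 fell with Sayeok-tang at 500 µg/mL, 0 rose and 3 fell with fresh ginger at 500 µg/mL, and 1 rose and 1 fell with dried ginger at 100 µg/mL, beside 18.9%, 13.4% and 6.15% of all genes. JUP (plakoglobin) fell by 0.75 on the log2 scale with dried ginger, to 150.5 CPM against 253.5 CPM in vehicle (adjusted p = 2.22e-14). CTNND1 (p120 catenin) fell by 0.21 and NECTIN2 fell by 0.19 there (adjusted p = 0.000109 and 0.000102). Of 9 tested desmosome genes 1 rose and 2 fell with dried ginger, the plaque proteins PPL (-0.48, adjusted p = 0.000536) and DSP (-0.29, adjusted p = 0.00446) being lower and the cadherin DSG2 higher (0.15, adjusted p = 0.00723); with Scutellariae 2 rose and 1 fell, DSG2 being higher (0.17, adjusted p = 7.93e-05), as was PKP4 (0.12, adjusted p = 0.00828), and EVPL lower (-0.23, adjusted p = 0.000919). KRT8 and KRT18 fell by 0.86 and by 0.82 on the log2 scale with dried ginger (adjusted p = 5.62e-15 and 4.35e-14), while KRT19 rose by 0.35 (adjusted p = 0.000423).

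Beside ABCA3 and LPCAT1, 4 of 13 type II genes could be tested with dried ginger and Scutellariae, and 2 rose with each. Over all genes 39.2% and 40.3% were called at these high doses. ETV5, a transcription factor, rose by 0.49 and by 0.47 (adjusted p = 6.32e-11 and 1.25e-12). LAMP3, a lamellar body and lysosome protein, had 1.68 ± 0.25 CPM with dried ginger at 500 µg/mL and 0.613 ± 0.117 CPM with Scutellariae at 190 µg/mL, against 0.129 ± 0.0981 CPM in vehicle (log2 changes 3.64 and 2.19, adjusted p = 1.39e-08 and 0.000304), so it stayed at a low level. In the other ginger groups no library had over 0.309 CPM of LAMP3. It thus passed the low-count filter of that fit only through the group where it is high. Its log2 changes rest on a vehicle level near 0, and its calls are no support for a rise of type II genes. Of 10 phosphatidylcholine synthesis genes 4 rose and 3 fell with dried ginger, and 3 rose and 4 fell with Scutellariae (medians 0.01 and -0.01), beside the same shares of all genes. PCYT1A, the rate-limiting enzyme of that synthesis, rose by 0.24 and LPCAT4 rose by 0.37 with dried ginger (adjusted p = 2.3e-05 and 0.0016), and PRDX6, a peroxiredoxin with phospholipase activity, fell by 0.16 (adjusted p = 0.000832). With Scutellariae PRDX6 fell by 0.23, LPCAT2 fell by 0.33 and CHPT1 fell by 0.21 (adjusted p = 2.3e-07, 3.33e-05 and 7.18e-05).

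Further lists were counted with dried ginger at 500 µg/mL, where 39.2% of all genes were called. Of the 4 tested EPCAM partners and matriptase genes 2 rose, SPINT2 by 0.24 and CD9 by 0.15, and CLDN7 fell by 0.97 in log2 units (adjusted p = 3.73e-05, 0.0283 and 0.00474); CLDN7 averaged 0.96 CPM in vehicle. Of the 3 tested epithelial state regulators KLF5 fell by 0.39 and ELF3 fell by 0.09 (adjusted p = 1.88e-07 and 0.0473). Of the 7 EMT (epithelial to mesenchymal transition) regulators and mesenchymal markers 3 rose and 2 fell: ZEB2 rose by 0.50 and ZEB1 rose by 0.18, and SNAI1, a repressor of CDH1 and of claudin genes, fell by 0.67 (adjusted p = 7.34e-05, 0.00832 and 3.59e-09). Of the 9 tested markers of other cell types 3 rose and 3 fell with Scutellariae at 190 µg/mL, beside 40.3% of all genes called. There CAV1 fell by 0.32, COL1A1 fell by 0.55 and MUC5B rose by 0.63 (adjusted p = 8.39e-11, 3.68e-09 and 0.000155). The summed level of all 22 such markers, most of it CAV1, was 422 to 433 CPM with dried ginger at 500 µg/mL and 455 to 460 CPM with Scutellariae at 190 µg/mL and 454 CPM with Coptidis at 110 µg/mL, against 535 to 558 CPM in vehicle; its part in the results was not tested.

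Over the 25 group means of log2 CPM, OCLN and CLDN1 had a Pearson r of 0.92, CLDN1 and ABCA3 0.92, and OCLN and ABCA3 0.87. OCLN and CLDN2 had -0.86 and OCLN and LPCAT1 -0.83. These points include 3 doses of each extract and share the scaling of the libraries. Groups of 1 library count as much as the others. The single Coptidis library at 110 µg/mL had the highest OCLN (53.9 CPM) and the lowest CLDN2 (11.7 CPM) and LPCAT1 (55.1 CPM). The values of r without Coptidis were not computed. Out of 10778 genes that averaged 5 CPM or more, the most alike to OCLN were ETS1 (r = 0.99) and AKNA (0.98), to CLDN1 EREG (0.98) and LOXL2 (0.97), to ABCA3 PLIN2 (0.95) and IRAK2 (0.95), and to CLDN2 PDK4 (0.93) and HS2ST1 (0.92). For CDH1 they were MYO1E (0.93) and ZBTB38 (0.92), for LPCAT1 PRSS23 (0.93) and TIMP2 (0.92), for F11R CREBL2 (0.91) and KYNU (0.89), for TJP1 CAMSAP1 (0.82) and LTBP3 (0.80), and for EPCAM ZNF286B (0.68) and NPEPPSP1 (0.66).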

How the data were processed

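The deposited table holds expected counts per gene from RSEM, by the form of its values (24.4% of the non-zero values are not whole). The submitters' processing notes name FastQC 0.11.9, Trim Galore 0.6.5, STAR 2.7.3a, RSEM 1.3.3 and GRCh38, with no settings; annotation release and counting strand are not given in the sources used. The 60 columns of these samples were used, and 209 other columns were not. Expected counts were rounded. Each fit held the extracts that the labels number as 1 set and the 3 vehicle libraries, with filterByExpr (minimum count 10), TMM scaling and the robust quasi-likelihood test of edgeR 4.0.16 in R 4.3.3, without a block. P-values were adjusted over all genes tested in a comparison, 32 comparisons in all (18 with vehicle, 6 of doses, 6 between extracts and 2 of dose changes). On counts simulated for dried ginger at 500 µg/mL against vehicle (16628 genes, 200 changed), the test called 83.6% of 110 genes changed 2-fold, 73.3% of 90 changed 1.5-fold and 13 unchanged genes. The simulation changed far fewer genes than the 39.2% called in the data and held no change under 1.5-fold. It therefore does not measure the reliability of the smaller calls. Extracts with 1 library per dose were described by log2 ratios with 0.5 CPM added. TPM used union exon lengths from GENCODE 29. Motifs were searched in RefSeq start regions. The 9 genes, the lists and the tests were chosen with earlier results of these data known. All 9 genes are named; of each list up to 3 genes with the lowest p are named, in the high-dose comparison with most calls, both where tied, and 2 like genes per member. Alternatives were DESeq2 1.42.0, RLE size factors, no filter, 1 fit of all 60 libraries, the replicate block, a 0.1 CPM pseudocount and leaving out each library.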

Additional observations from a re-analysis of the deposited data

Results flagged for a closer look

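The dose change (500 against 20 µg/mL) differed between dried and fresh ginger for 4 of the 9 genes in a direct test, beside 11.2% of all genes. It was larger with dried ginger by 0.5131 for CLDN1, 0.5437 for OCLN and 0.6004 for ABCA3 on the log2 scale. For CLDN2 the difference was 0.2608, a call that ended in 9 of 12 leave-outs and with DESeq2 (adjusted p = 0.0605). Between Sayeok-tang and Bojungikgi-tang the dose change differed for CLDN1, by 0.342, beside 0.275% of all genes.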

How the results depend on the processing

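No called value of the 9 genes changed its sign under any alternative, and 24 of 66 calls ended in at least 1 leave-out. RLE size factors, 1 fit of all 60 libraries and the replicate block ended none of the 66 calls, no filter ended 2 and DESeq2 ended 6 and gave no adjusted p for 1, CLDN2 with Bojungikgi-tang at 100 µg/mL. With DESeq2 the count of called members was 3 for Sayeok-tang high against low dose, 0 for Bojungikgi-tang at 500 and at 100 µg/mL and 0 between the formulas at 100 µg/mL, and 1 for fresh ginger at 100 µg/mL and for dried ginger at 20 µg/mL. One fit of all libraries gave 1 for both of these ginger groups and 3 for dried against fresh ginger at 100 µg/mL; no filter gave 1 for dried ginger at 20 µg/mL. A pooled-spread test gave 8, 7 and 5 members for Coptidis at 110, 22 and 4.4 µg/mL, beside 32.4%, 17.3% and 7.38% of all genes, assuming that lone libraries vary like the other groups. Replicate numbers were not taken as pairs, since the labels state no pairing and not every pair of libraries with the same number had r over 0.1: 0 of 48, 3 of 63 and 0 of 63 pairs did. Libraries of the same number had a mean r of -0.00 for the formulas, 0.03 for the gingers and 0.01 for Pinelliae and Scutellariae, and 7 of 18, 14 of 21 and 11 of 21 libraries correlated best with their own number, which for the gingers is a hint from the data, not the design; the replicate block moved the count to 2 for Bojungikgi-tang at 500 µg/mL. Leaving out 1 library gave, against vehicle at high, medium and low dose, 0 to 1, 0 to 1 and 0 to 3 members for Bojungikgi-tang and 0 to 2, 0 to 1 and 0 to 1 for Pinelliae. At medium and low dose it gave 1 to 2 for Sayeok-tang and for Scutellariae, and 1 to 4 and 0 to 1 for dried ginger; fresh ginger at 20 µg/mL had 1 to 3. High against low dose it gave 3 to 5 for Sayeok-tang and 1 to 4 for fresh ginger; at 100 µg/mL 0 to 1 between the formulas and 0 to 2 between the gingers. Depth limits EPCAM most, at 85 to 180 counts per library.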
